A study of Mus musculus with 6 samples.

Results

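Proteoglycans of the extracellular matrix were followed in mouse kidney through 8 genes: Bgn (biglycan), Dcn (decorin), Aspn (asporin), Lum (lumican), Fmod (fibromodulin), Prelp, Ogn (osteoglycin) and Vcan (versican). The genes were chosen by name, and all 8 were found among the 23396 genes of the deposited table. They and the gene lists below were chosen with earlier results of these data known. Total RNA was sequenced from the frozen right kidneys of 6 mice, all male and 6 months of age. Of these mice, 3 carried the targeted allele Far2tm2a(KOMP)Wtsi on both chromosomes, in the strain C57BL/6N-Far2tm2a(KOMP)Wtsi/2J (knockout), and 3 were C57BL/6N with the genotype given as wild type. No treatment is named for either group, and the labels do not say whether the mice were littermates. Far2 encodes a fatty acyl-CoA reductase, and the comparison asks how its loss goes with kidney gene expression. Each library is numbered 0, 1 or 2 within its group in the deposited table. These numbers could not be tied to the named mice.

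A proteoglycan is a protein core that carries long sulfated sugar chains. Small leucine-rich proteoglycans wrap around collagen fibrils and set their thickness and spacing, and some of them hold TGF beta in the matrix or act on cell surface receptors when released. Versican is a large proteoglycan that binds hyaluronan and swells the loose matrix around cells. In kidney these genes are known mainly from fibroblasts, pericytes, mesangial cells and vascular smooth muscle, and several accumulate in scarred tissue.

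The libraries held from 15261362 to 20631158 fragments assigned to genes. Far2 had 40, 40 and 22 fragments in the wild-type libraries and 28, 19 and 31 in the knockout libraries, so these counts over the whole gene do not check the genotype labels. The labelled tissue was borne out by its markers: all 8 proximal tubule markers, among them Slc34a1 and Lrp2, and all 6 markers of other nephron segments were measured in both groups. Wild-type library 0 stood apart from the rest. Havcr1 (KIM-1, a sign of tubular injury) reached 21.5 CPM in it, against 0.617 to 0.916 CPM in the other 5 libraries (CPM, fragment counts scaled to a common library size). Values without this library are also given for the 8 genes and for most of the gene lists. The plot of list medians shows each list with and without this library.

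The genes lie in groups along the genome (GENCODE M21, GRCm38). Dcn, at 97479609 to 97518143 on the plus strand of chromosome 10, is followed after 47.0 kb by Lum, at 97565128 to 97572703 on the same strand. Aspn (49544443 to 49567565) and Ogn (49608046 to 49624501) lie on the plus strand of chromosome 13 with 40.5 kb between them. Prelp (133910304 to 133921414, minus strand) and Fmod (134037254 to 134048277, plus strand) lie 116 kb apart on chromosome 1. Bgn, at 73483602 to 73495933 on the plus strand, is on chromosome X, and Vcan, at 89655312 to 89742509 on the minus strand, is on chromosome 13. Both Aspn and Ogn lie within the span of Cenpp, which is read from the opposite strand. Its exons share 7 bases with those of Aspn and 0 with those of Ogn, and Cenpp itself had 5 to 13 fragments per library. An antisense gene, Gm15851, shares 350 exon bases with Prelp. The strand setting of the counting is not given in the sources used here. Over these 350 bases, reads of Prelp and of this antisense gene therefore cannot be told apart. The longest coding transcript of Prelp has 3615 bases.

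Promoter windows from RefSeq (GRCm38.p6, 250 bases before to 50 bases after the annotated start) were found for 6 of the 8 genes. Those of Bgn and Fmod are shown because these were the 2 genes with an unadjusted p under 0.05 in the comparison below, and those of Ogn and Aspn because these were the 2 with no lower level in knockout. The windows are chrX:73483351-73483650 (plus strand), chr1:134037004-134037303 (plus strand), chr13:49607765-49608064 (plus strand) and chr13:49544193-49544492 (plus strand), each written from 5′ to 3′ along the gene. Capitals mark a match, on either strand, to one of 5 short motifs. The TATA box was searched as the letters TATAAA, the GC box as the letters GGGCGG, the AP-1 motif as the letters TGANTCA, the E-box as the letters CACGTG and the TEAD motif as the letters GGAATG.
Bgn: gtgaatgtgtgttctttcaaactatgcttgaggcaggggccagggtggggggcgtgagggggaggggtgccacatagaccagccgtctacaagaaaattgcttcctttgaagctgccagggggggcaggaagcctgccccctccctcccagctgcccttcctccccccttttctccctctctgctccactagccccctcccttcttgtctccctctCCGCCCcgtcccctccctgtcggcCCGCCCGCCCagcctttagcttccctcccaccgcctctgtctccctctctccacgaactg
Fmod: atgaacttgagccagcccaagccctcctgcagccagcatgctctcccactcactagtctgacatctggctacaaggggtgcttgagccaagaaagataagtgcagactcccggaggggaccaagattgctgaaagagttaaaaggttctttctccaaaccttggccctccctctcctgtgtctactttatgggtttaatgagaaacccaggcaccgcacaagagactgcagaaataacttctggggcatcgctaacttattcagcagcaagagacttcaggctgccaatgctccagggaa
Ogn: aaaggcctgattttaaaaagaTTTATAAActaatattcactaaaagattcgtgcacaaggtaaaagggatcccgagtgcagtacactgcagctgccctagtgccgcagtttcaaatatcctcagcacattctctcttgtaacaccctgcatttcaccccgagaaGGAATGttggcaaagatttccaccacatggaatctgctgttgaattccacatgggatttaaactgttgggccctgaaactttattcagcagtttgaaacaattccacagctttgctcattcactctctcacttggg
Aspn: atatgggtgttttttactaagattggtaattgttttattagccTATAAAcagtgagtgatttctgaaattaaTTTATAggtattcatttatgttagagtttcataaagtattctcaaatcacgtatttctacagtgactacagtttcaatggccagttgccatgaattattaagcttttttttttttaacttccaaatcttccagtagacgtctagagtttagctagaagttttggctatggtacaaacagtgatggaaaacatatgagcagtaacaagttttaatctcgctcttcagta

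The Bgn window is rich in G and C, at 63.7% against a median of 52.7% over all promoter windows. It holds 3 GC boxes on the reverse strand, at positions -34, -10 and -6 from the start, of which the last 2 overlap. A GC box is present in 35.7% of the 32851 promoter windows of the table. The Ogn window has 42.3% G and C, with 1 TATAAA match on each strand, overlapping each other, and 1 TEAD match at position -86. The Aspn window has 31.0% G and C and 2 TATAAA matches, at positions -207 and -178, and the Fmod window (51.0%) has no match to any of the 5. TATAAA is present in 13.6% of all windows and the TEAD motif in 14.7%. The AP-1 motif, in 7.81% of all windows, and the E-box, in 7.15%, matched none of the 6 windows found. Of the 2 windows not shown, that of Vcan held 2 GC boxes and that of Prelp no match.

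Per transcript length, Bgn and Dcn were the most abundant of the 8 genes. In deposited FPKM (fragments scaled by transcript length and library depth), Bgn averaged 27.5 over the 6 libraries with a range of 23.2 to 31.8. Dcn averaged 25.5 with a range of 21 to 42.7, and Ogn 13.4 with a range of 12 to 16.0. Bgn lay above Dcn in 5 of the 6 libraries, and their ranges overlapped, while the ranges of Dcn and Ogn, and of Ogn and Prelp, did not. Prelp averaged 4.46 FPKM (3.16 to 5.47), and its range overlapped that of Lum, at 1.63 FPKM (0.756 to 3.49). Aspn averaged 1.11 FPKM (0.801 to 1.59), Fmod 1.08 FPKM (0.795 to 1.34) and Vcan 0.714 FPKM (0.624 to 0.822). Lum, Aspn and Fmod overlapped in range, and Lum stood above Aspn in 3 of the 6 libraries. Aspn in turn stood above Fmod in 3 of 6, and Fmod above Vcan in all 6, although the ranges of Fmod and Vcan also overlapped. Bgn, Dcn and Ogn together held most of the signal, with 36.5%, 33.9% and 17.7% of the FPKM summed over the 8 genes.

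**Figure D1:**
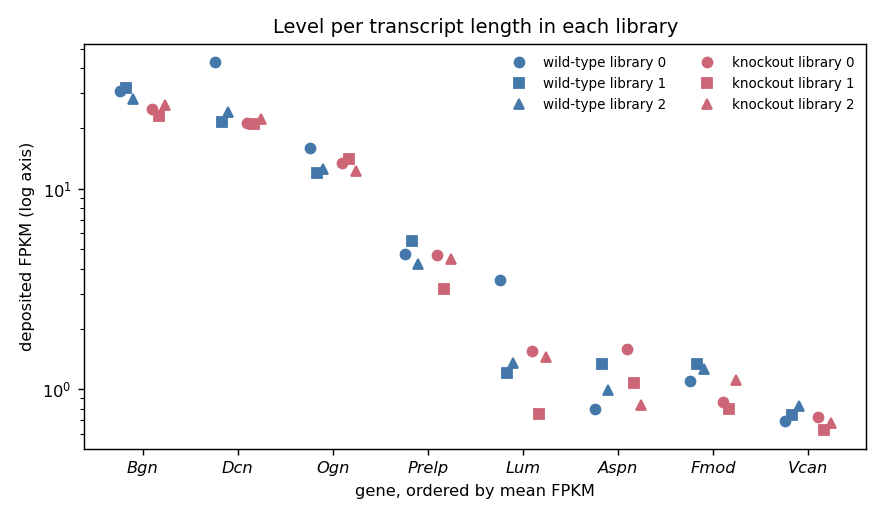
Deposited FPKM of each gene (vertical log axis) in each of the 6 libraries, with genes ordered by their mean from left to right, wild-type libraries in blue and knockout libraries in red, and 1 marker shape per library number. Bgn and Dcn lie above 20 FPKM and Vcan below 1 FPKM in every library, and wild-type library 0 stands alone at the top for Dcn (42.7 FPKM) and Lum (3.49 FPKM).

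Across the genotypes, 6 of the 8 genes had a lower fitted level in knockout, where 51.7% of all 14354 tested genes did. The 6 were Bgn, Dcn, Lum, Fmod, Prelp and Vcan. The median log2 ratio of knockout to wild type was -0.28 for the 8 genes and -0.0066 for all tested genes. With p adjusted by Benjamini-Hochberg over all genes, none of the 8 passed edgeR's quasi-likelihood test (0% of all genes passed), and the smallest adjusted p among them was 0.599. At an unadjusted p under 0.05, edgeR gave 2 of the 8 as lower in knockout, Bgn and Fmod, against 5.14% of all genes, and 0 as higher, against 3.17% (8.31% in either direction). DESeq2 called 0 of the 8 (0.0906% of genes; 13 genes in all), and Bgn alone of them had an unadjusted p under 0.05 there. In bulk tissue, fewer cells of a type and less RNA per cell cannot be told apart.

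**Figure D2:**
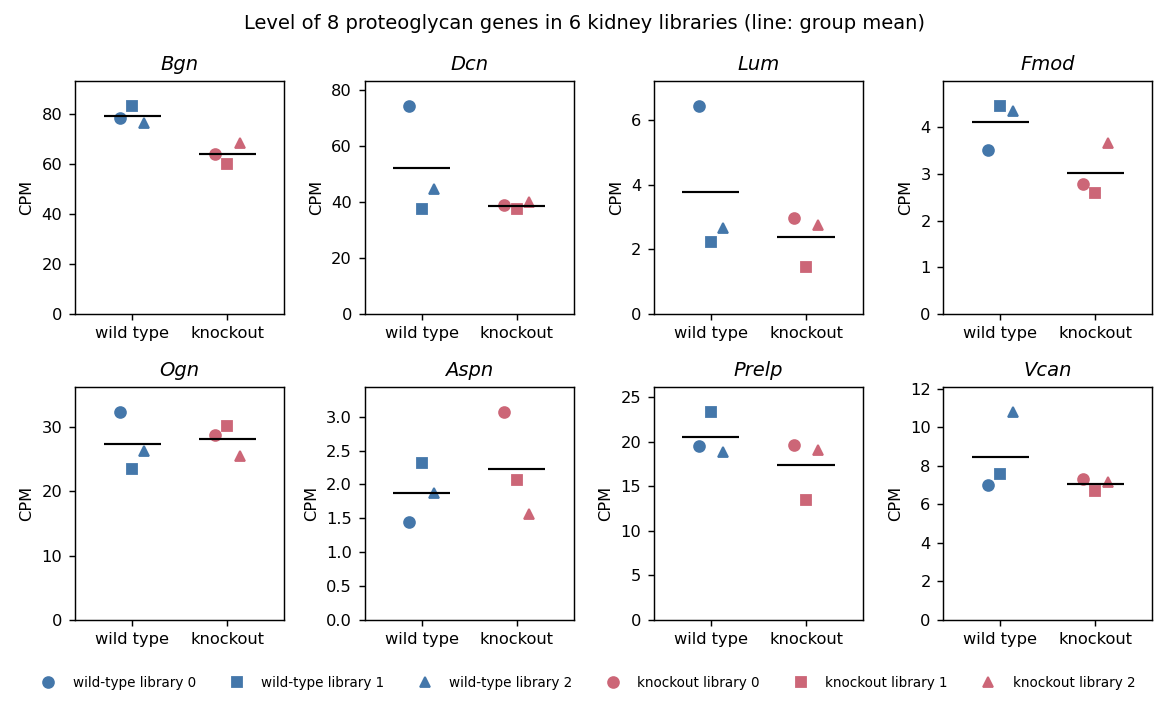
CPM of each of the 8 genes (vertical axis from 0, a scale of its own in each panel) in wild-type and knockout libraries, with 1 point per library and a line at the group mean. The 3 knockout points of Bgn (60.1 to 68.4 CPM) lie below the 3 wild-type points (76.5 to 83.3 CPM), and in the other 7 panels the groups overlap.

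Biglycan, decorin and asporin form 1 class of the family. Biglycan carries a pair of chondroitin or dermatan sulfate chains, and when freed from the matrix it can signal through Toll-like receptors of macrophages. Bgn was at 78.3, 83.3 and 76.5 CPM in wild-type libraries 0, 1 and 2 and at 63.9, 60.1 and 68.4 CPM in knockout libraries 0, 1 and 2. All knockout libraries lay below all wild-type libraries, which held for 6.96% of the genes tested and for 1 of these 8. In the opposite direction, 7.12% of genes and 0 of the 8 were free of overlap. The level in knockout was 0.808 times that in wild type, with a 95% confidence interval of 0.723 to 0.903. The log2 fold change of Bgn was -0.31 ± 0.072 (SE; n = 3 per group; edgeR's quasi-likelihood test, unadjusted p = 0.0017, adjusted p = 0.599), and Bgn ranked 30 by p among the 14354 tested genes. With 904 to 1757 fragments per library, counting alone adds an error of 3.33% at the lowest library.

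Decorin carries a single chain, binds collagen I fibrils and can hold TGF beta. Dcn was at 74.2, 37.5 and 44.7 CPM in wild-type libraries 0, 1 and 2 and at 38.7, 37.4 and 39.8 CPM in knockout. Wild-type library 0 was 1.87 times the mean of the other 5, and the groups overlapped, since wild-type library 1 was as low as the knockout libraries. For Dcn the log2 fold change was -0.43 ± 0.21 (SE; edgeR's quasi-likelihood test, adjusted p = 0.603) with all libraries and -0.086 without wild-type library 0 (adjusted p = 0.757, with 0.593 to 0.998 over all alternatives). Within the knockout group Dcn varied little, at 38.6 ± 1.18 CPM (SD, n = 3), against 52.1 ± 19.5 CPM in wild type.

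Asporin lacks the sugar chain site of its relatives and is known to compete with decorin for collagen. Aspn was at 1.44, 2.32 and 1.88 CPM in wild-type libraries 0, 1 and 2 and at 3.07, 2.06 and 1.56 CPM in knockout. The groups overlapped, with the highest value in knockout library 0 and the lowest in wild-type library 0. Its log2 fold change was 0.24 ± 0.30 (SE; edgeR's quasi-likelihood test, adjusted p = 0.818), and without knockout library 0 it was -0.066. The counts were small, 29 to 54 fragments per library, so that counting alone gives an error of 18.6% at the lowest. The 95% confidence interval of the knockout level ran from 0.745 to 1.88 times wild type.

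Lumican, fibromodulin and Prelp form the next class. Lumican and fibromodulin carry keratan sulfate and share binding sites on collagen, and Prelp has a basic end that binds heparin and heparan sulfate. Lum was at 6.45, 2.23 and 2.66 CPM in wild-type libraries 0, 1 and 2 and at 2.96, 1.46 and 2.75 CPM in knockout. Wild-type library 0 was 2.67 times the mean of the other 5, knockout library 1 was lowest, and the other 4 libraries lay between 2.23 and 2.96 CPM across both groups. For Lum the log2 fold change was -0.65 ± 0.41 (SE; edgeR's quasi-likelihood test, adjusted p = 0.647), and it was -0.0046 without wild-type library 0 (adjusted p = 0.996, with 0.6 to 0.998 over all alternatives). Lum had 22 to 130 fragments per library, with a counting error of 21.3% at the lowest.

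Fmod was at 3.52, 4.46 and 4.35 CPM in wild-type libraries 0, 1 and 2 and at 2.79, 2.59 and 3.67 CPM in knockout. Knockout library 2 lay just above wild-type library 0, so the groups overlapped by this pair alone. The level in knockout was 0.739 times that in wild type (95% confidence interval 0.548 to 0.996), a log2 fold change of -0.44 ± 0.19 (SE; edgeR's quasi-likelihood test, unadjusted p = 0.0477, adjusted p = 0.599). Without wild-type library 0 the log2 fold change of Fmod was -0.54 (unadjusted p = 0.0266 by edgeR's quasi-likelihood test across all genes). Its libraries held 39 to 94 fragments, which gives a counting error of 16.0% at the lowest.

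Prelp was at 19.5, 23.3 and 18.8 CPM in wild-type libraries 0, 1 and 2 and at 19.6, 13.4 and 19.0 CPM in knockout. Knockout libraries 0 and 2 stood among the wild-type values, and knockout library 1 alone was lower. The log2 fold change was -0.24 ± 0.14 (SE; edgeR's quasi-likelihood test, adjusted p = 0.634). With each library left out in turn it ran from -0.33 (without knockout library 0) to -0.091 (without knockout library 1). Without wild-type library 1 the log2 fold change of Prelp was -0.13.

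Osteoglycin, of a further class, is a short leucine-rich proteoglycan of bone and vessel walls. Ogn was at 32.3, 23.4 and 26.3 CPM in wild-type libraries 0, 1 and 2 and at 28.7, 30.1 and 25.4 CPM in knockout. The knockout libraries lay inside the range of the wild-type libraries. Ogn had a log2 fold change of 0.038 ± 0.12 (SE; edgeR's quasi-likelihood test, adjusted p = 0.939), and the 95% confidence interval of the ratio of knockout to wild type was 0.849 to 1.24. On deposited FPKM the sign of the small difference was negative (-0.020 on log2(FPKM + 1)). Ogn had 406 to 650 fragments per library, with a counting error of 4.96% at the lowest.

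Versican belongs to another family, the hyaluronan-binding proteoglycans, and Adamts proteases cut it. Vcan was at 7, 7.59 and 10.8 CPM in wild-type libraries 0, 1 and 2 and at 7.34, 6.71 and 7.17 CPM in knockout. Wild-type library 2 stood above the other 5, which lay between 6.71 and 7.59 CPM. The log2 fold change was -0.25 ± 0.17 (SE; edgeR's quasi-likelihood test, adjusted p = 0.676). With each library left out in turn it ran from -0.36 (without wild-type library 0) to -0.043 (without wild-type library 2).

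**Figure D3:**
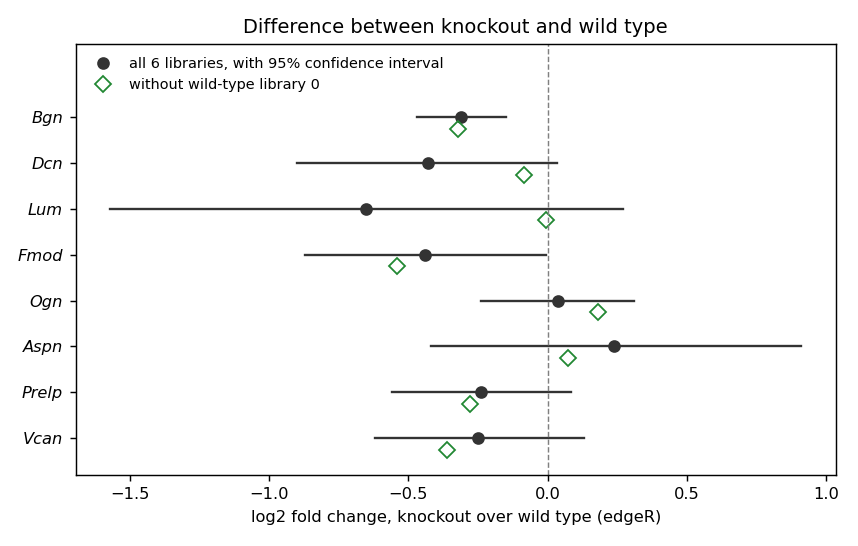
Log2 ratio of knockout to wild type (horizontal axis) for each gene, with filled points and lines for the fit with all 6 libraries and its 95% confidence interval, and open diamonds for the fit without wild-type library 0. The intervals of Bgn (-0.47 to -0.15) and Fmod (-0.87 to -0.0055) do not reach 0 before adjustment, and the diamonds of Dcn (-0.086) and Lum (-0.0046) lie close to 0.

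Of the 8 genes, 3 (Dcn, Lum and Ogn) had their highest CPM in wild-type library 0, as did 17.1% of all tested genes. The lowest CPM was in knockout library 1 for 6 of the 8, all those with a lower fitted level, as for 22% of all tested genes. Without wild-type library 0, 6 of the 8 still had a lower fitted level (49.9% of tested genes), with a median log2 fold change of -0.18, and 2, Bgn and Fmod, had an unadjusted p under 0.05 in that direction by edgeR (7.06%). Of the genes whose value without that library is not given above, Bgn was at -0.32, Prelp at -0.28 and Vcan at -0.36. Aspn was at 0.073 and Ogn at 0.18. The log2 fold change of Bgn lay between -0.35 and -0.26 with each library left out in turn and that of Fmod between -0.60 and -0.35.

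**Figure D4:**
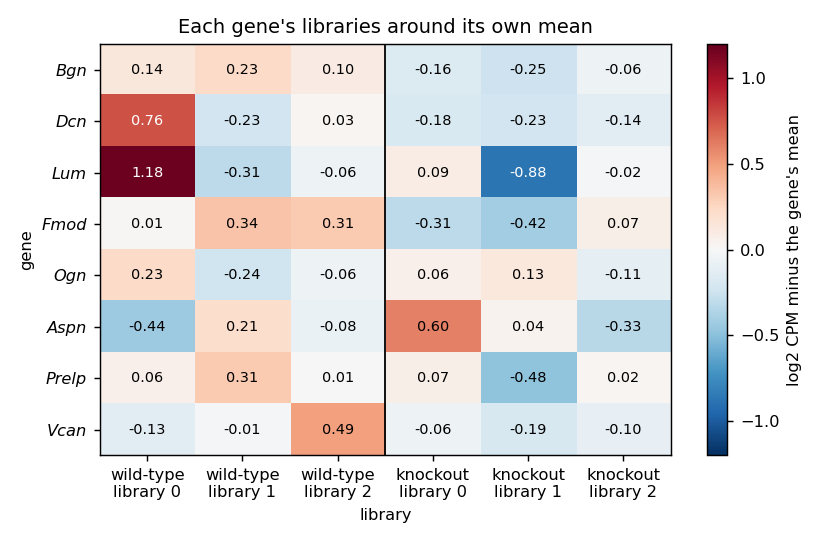
Log2 CPM of each gene (rows) in each library (columns) minus the mean of that gene over the 6 libraries, with red above and blue below the mean and a line between wild type and knockout. Wild-type library 0 is highest for Dcn (0.76) and Lum (1.18), Bgn is above its mean in every wild-type library and below it in every knockout library, and knockout library 1 is lowest for Lum (-0.88) and Prelp (-0.48).

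The balance of decorin to biglycan set wild-type library 0 apart from the other 5 libraries. Decorin over biglycan, as a ratio of FPKM, was 1.39 in that library, 0.679 and 0.864 in wild-type libraries 1 and 2, and 0.861, 0.905 and 0.850 in knockout. This was the one library with more Dcn than Bgn. Decorin over osteoglycin was 2.67, 1.79 and 1.93 in wild type and 1.59, 1.5 and 1.83 in knockout, with overlap. Biglycan over osteoglycin was 1.92, 2.64 and 2.24 in wild type and 1.65 to 2.15 in knockout, also with overlap. Lumican over decorin stayed between 0.0361 and 0.0817 across the 6 libraries.

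In the authors' deposited table of their Cuffdiff comparison, 0 of the 8 genes had a q-value under 0.05, against 0.657% of the 13404 genes tested there. At a p-value under 0.05 in the authors' deposited table, 4 of the 8 (Bgn, Dcn, Lum and Fmod) were lower in knockout, against 4.74% of genes. Dcn came closest, with a log2 fold change of -0.45 and a q-value of 0.0644 in the authors' deposited table, and Bgn stood at -0.29 with a q-value of 0.444 there. For Dcn the deposited p-value was 0.0005, while edgeR gave an unadjusted p of 0.0647 across the same libraries.

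The neighbours of these genes in the genome, mostly further leucine-rich proteoglycans, were measured too. On chromosome 10, Lum is followed by Kera (keratocan, a corneal proteoglycan) and Epyc (epiphycan, of cartilage), which had 2 and 4 fragments in all 6 libraries together. Optc, which lies 2.30 kb from Prelp on chromosome 1, had 11 fragments in all. On chromosome 13, Omd (osteomodulin) and Ecm2 lie in the same deposited locus as Aspn and Ogn. Their levels were 8.34 ± 1.80 and 5.75 ± 0.715 CPM in wild type (SD, n = 3) and 8.44 ± 2.42 and 5.90 ± 0.759 CPM in knockout. The log2 fold changes of Omd and Ecm2 were 0.025 ± 0.22 and 0.043 ± 0.15 (SE; edgeR's quasi-likelihood test, adjusted p = 0.981 and 0.945). In the same deposited locus Ogn was at 0.038, Aspn at 0.24 and Cenpp at 0.024. With all libraries none of these genes had a lower fitted level in knockout, where 51.7% of all tested genes did. Without wild-type library 0 Omd was at -0.13, and the signs of Ogn and Aspn turned in some alternatives given below. Of the 10 other leucine-rich proteoglycans and close relatives, 4 passed the filter on low counts, and 0 of them passed edgeR's test after adjustment. The fitted level was lower for 2 of the 4 (median -0.14), Tsku and Podn. Both had an unadjusted p under 0.05 by edgeR (0.0157 and 0.0234), against 5.14% of all genes lower at that p. Without wild-type library 0 it was lower for 3 of the 4 (median -0.26), 2 of them at that p (7.06% of all genes). Tsku (tsukushi, which binds BMP ligands) averaged 45.3 ± 6.30 CPM (wild type) and 36.6 ± 2.46 CPM (knockout) without overlap. Podn (podocan) averaged 12.1 ± 2.39 and 9.23 ± 0.305 CPM with overlap.

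Among 12 other secreted matrix proteoglycans and relatives, 8 were tested, 6 with a lower fitted level and 0 past edgeR's adjusted threshold, with a median log2 fold change of -0.20. Spock2 (testican 2) was at 1.74 ± 0.339 CPM (wild type) and 0.987 ± 0.230 CPM (knockout), from 13 to 45 fragments per library (counting error 27.7% at the lowest). Col18a1, a basement membrane collagen with heparan sulfate chains, was at 150 ± 16.9 and 128 ± 3.17 CPM, and Agrn (agrin, of the glomerular basement membrane) at 125 ± 7.01 and 111 ± 5.08 CPM. The groups overlapped for Col18a1 and did not for Spock2 and Agrn. Among the cell surface proteoglycans 11 of 12 were tested, 8 with a lower fitted level and 0 past the adjusted threshold (median -0.20). Of these, the glypicans Gpc6 and Gpc3 were lower without overlap, at 6.00 ± 0.191 against 4 ± 0.604 CPM for Gpc6 and 21.6 ± 2.70 against 17.4 ± 1.40 CPM for Gpc3. Gpc1 was higher without overlap, at 17.7 ± 3.70 CPM (wild type) and 22.9 ± 0.261 CPM (knockout). The unadjusted p of these 3 by edgeR's test across all genes was 0.00376, 0.0164 and 0.0202.

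The enzymes that build the sugar chains stood close to equal between the groups. Of 24 tested genes of chain synthesis and sulfation, 13 had a lower and 11 a higher fitted level, the median log2 fold change was -0.032, and 0 passed edgeR's adjusted threshold. The first enzymes of the chain, Xylt1 and Xylt2, had log2 fold changes of -0.19 ± 0.20 and 0.005 ± 0.10 (SE). The 3 with the smallest p were sulfotransferases. Chst15 averaged 26.8 ± 4.92 CPM (wild type) and 20.2 ± 2.98 CPM (knockout), Chst2 8.96 ± 0.671 and 7.57 ± 0.607 CPM, and Chst3 6.34 ± 0.905 and 5.17 ± 0.149 CPM. Chst2 and Chst3 did not overlap between the groups, and Chst15 did.

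Proteases reported to cut these cores, with procollagen processing partners, had a lower fitted level for 10 of 12 tested genes (median -0.16). Of these, 0 passed edgeR's adjusted threshold and 3 had an unadjusted p under 0.05, against 5.14% of all genes lower at that p. Without wild-type library 0 the fitted level was lower for 9 of 12 (median -0.087), 1 of them at that p (7.06% of all genes). Bmp1, which trims the biglycan precursor and procollagens, averaged 8.61 ± 0.865 CPM (wild type) and 6.64 ± 0.772 CPM (knockout), without overlap. Among genes of hyaluronan, which versican binds, 7 were tested and 4 had a lower fitted level (median -0.05), and 5 without wild-type library 0 (median -0.088). Has3, a hyaluronan synthase, was at 7 ± 1.27 CPM (wild type) and 5.15 ± 0.890 CPM (knockout), and Cd44, the hyaluronan receptor, had a log2 fold change of -1.2 with all libraries and -0.29 without wild-type library 0. Of 14 tested receptors and ligands that proteoglycans bind, 7 had a lower fitted level (median -0.04), and 4 without wild-type library 0, where the median turned to 0.11. The smallest p was that of P2rx7, a receptor named in biglycan signalling, at 4 ± 0.934 and 2.58 ± 0.530 CPM. Tlr2, a receptor of soluble biglycan, was at 7.15 CPM in wild-type library 0 and at 2.8 to 3.32 CPM in the other 5, and its log2 fold change was -0.45 ± 0.33 (SE) with that library and 0.12 without it. Tlr4 had a log2 fold change of 0.031 ± 0.16 (SE) and, without wild-type library 0, of 0.26 (unadjusted p = 0.0452 by edgeR's test across all genes, adjusted p = 0.439). Tlr4 was the 1 gene of the 14 that was higher at an unadjusted p under 0.05 without that library (593 of 14339 genes). In that fit 2 were lower at that p (7.06% of all genes), Lrp1 at -0.52 and Igf1r at -0.34. Their unadjusted p by edgeR's test was 0.00011 and 0.00927, and their adjusted p 0.227 and 0.349. Of the 15 fibril collagens and glycoproteins that the proteoglycans bind, 14 had a lower fitted level (median -0.31). By edgeR 7 of them had an unadjusted p under 0.05, against 5.14% of all genes lower at that p. Without wild-type library 0 the fitted level was lower for 12 (median -0.29), 3 of them at that p (7.06% of all genes). Col12a1 averaged 22.4 ± 0.691 CPM (wild type) and 16.0 ± 2.83 CPM (knockout), without overlap. None of the hyaluronan, receptor or collagen genes passed edgeR's adjusted threshold.

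**Figure D5:**
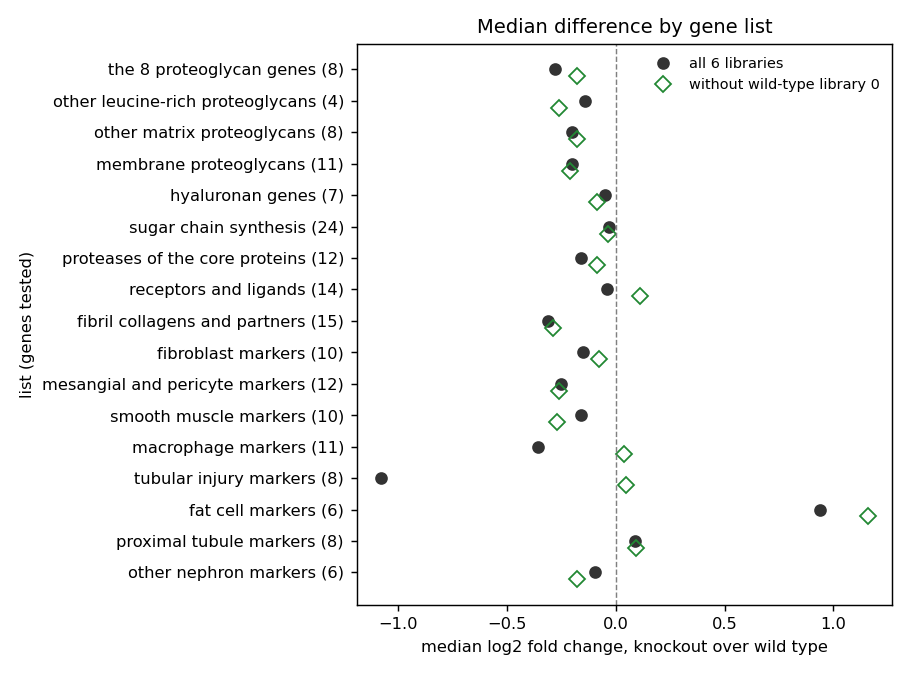
Median log2 ratio of knockout to wild type (horizontal axis) of each gene list, with the number of genes tested in brackets, from all 6 libraries (filled points) and without wild-type library 0 (open diamonds). The 8 proteoglycan genes stand at -0.28 and -0.18, the sugar chain enzymes at -0.032 and -0.036, and the tubular injury markers go from -1.08 to 0.046.

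Markers of the cells that make these proteoglycans, and of other cells in the tissue, were measured in the same libraries. Fibroblast markers that are not among the 8 genes had a lower fitted level for 8 of 10 tested (median -0.15). By edgeR 2 of them had an unadjusted p under 0.05, against 5.14% of all genes lower at that p. Without wild-type library 0 the fitted level was lower for 7 of 10 (median -0.076), with 0 at that p (7.06% of all genes). Their summed CPM was 211 to 243 in wild type and 210 to 230 in knockout. The smallest p was that of Mfap5 (0.785 ± 0.194 and 0.322 ± 0.168 CPM). Its counts were very small, 2 to 19 fragments per library, with a counting error of 70.7% at the lowest. Pdgfra had a log2 fold change of -0.12 ± 0.083 (SE). Mesangial and pericyte markers were lower for 11 of 12 (median -0.25), with sums of 342 to 392 CPM (wild type) and 278 to 327 CPM (knockout), without overlap. Smooth muscle markers were lower for 10 of 10 (median -0.16, and -0.27 without wild-type library 0), with sums of 304 to 370 CPM and 279 to 317 CPM. At an unadjusted p under 0.05 by edgeR, 5 mesangial and pericyte and 4 smooth muscle markers were lower (5.14% of all genes). Without wild-type library 0 these counts were 6 and 5 (7.06% of all genes). Rgs5, of pericytes, was at 30.6 ± 1.78 CPM (wild type) and 24.1 ± 0.820 CPM (knockout), and Synpo2, of smooth muscle, at 6.37 ± 0.158 and 4.68 ± 0.0941 CPM, each without overlap. The part of these cell types in the lower Bgn and Fmod values was not tested.

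Of 11 tested macrophage markers 10, and of 8 injury markers 8, were highest in wild-type library 0, the library that was also highest in Dcn and Lum. The summed macrophage markers were at 273 CPM there and at 117 to 155 CPM in the other 5 libraries. The summed tubular injury markers were at 1480 CPM there and at 675 to 795 CPM elsewhere. Of 11 tested macrophage markers 11 had a lower fitted level in knockout with all libraries and 4 without wild-type library 0, and of 8 injury markers 8 and 3. Csf1r, the macrophage marker with the smallest p and the one not highest in wild-type library 0, was at 61.9 ± 1.51 CPM (wild type) and 54.9 ± 5.10 CPM (knockout). The part of these cells in the high Dcn and Lum of wild-type library 0 was not tested. Fat cell markers had a higher fitted level for 6 of 6 tested (median 0.94), and all 6 were highest in knockout library 2. Cfd (adipsin), for one, was at 7.22 CPM in that library, at 2.62 and 1.86 CPM in knockout libraries 0 and 1, and at 0.617 to 2.66 CPM in wild type. Without wild-type library 0 the fitted level of 5 of the 6 was higher. The sum of the list was 32.6 to 39.6 CPM (wild type) and 42.7, 41.5 and 65.4 CPM (knockout libraries 0, 1 and 2), and Car3, which the tissue may also express, was at 25.2 ± 1.43 and 34.8 ± 6.18 CPM. All markers of these lists found in the table had at least 1 fragment. Proximal tubule markers had a higher fitted level for 7 of 8 tested (median 0.086), with 0 at an unadjusted p under 0.05 by edgeR. Without wild-type library 0 the fitted level was lower for 3 of the 8 (median 0.091). Other nephron markers were lower for 4 of 6 (median -0.094, and -0.18 without that library). Slc5a2 (347 ± 14.5 and 388 ± 36.3 CPM) had the smallest p of the proximal tubule markers, and Umod of the other nephron markers, with a log2 fold change of 0.13 ± 0.089 (SE).

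Genes with the most similar course over the 6 libraries were found by the root-mean-square distance between log2 CPM values centred on each gene, among 13198 genes. This is a description over 6 points, and every gene shares the same 6 libraries. The nearest to Bgn were Timp2 (distance 0.0266), an inhibitor of metalloproteinases, Pdgfb (0.0322) and Pitpnb (0.0334), and the nearest of the other proteoglycans was Prelp (0.149). The nearest to Dcn were Tlr1 (0.0643), Plxnc1 (0.0772) and Mmp14 (0.084), a membrane-bound metalloproteinase. Lum was nearest to Dpt (0.149), dermatopontin, a matrix protein that binds decorin, then to Sgol2 (0.205) and Samd5 (0.230), and Dcn (0.343) was its nearest relative. Fmod was nearest to Tns4 (0.0492) and Kdm6b (0.0517), with Bgn (0.153) as its nearest relative. Prelp was nearest to Aff3 (0.0396), Msmp (0.0465) and Mdc1 (0.0533). Ogn was nearest to P2ry14 (0.046), Pyroxd1 (0.0504) and Impact (0.0507), and Aspn to Trim6 (0.0737), Pex5l (0.096) and Nxph3 (0.104). Vcan was nearest to Atxn1 (0.0447), Sik1 (0.0461) and Nhsl2 (0.0623). Aspn and Lum were the pair farthest apart, at 0.828. Of the 6 genes that have another of the 8 as a genomic neighbour, Lum alone had it as its nearest (Dcn, 0.343). The nearest to Dcn was Ogn (0.282), to Ogn Bgn (0.27), to Aspn Prelp (0.397), and to Fmod and Prelp Bgn (0.153 and 0.149). This distance depends on the size of each gene's spread as well as on its course. For Ogn and Aspn it exceeded their own spread around the mean (0.155 and 0.345). Many of the 13198 genes lay nearer than the nearest of the 8: 9740 for Ogn, 8659 for Aspn, 1839 for Bgn and 2999 for Vcan. For Dcn it was 817, for Prelp 487, for Fmod 216 and for Lum 39.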

How the data were processed

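RNA was extracted from frozen kidneys and libraries were made with a stranded total RNA kit that removes ribosomal RNA, per the labels' protocols. Tools listed, per the submitters' processing notes, were TopHat2 2.0.13 with Bowtie2 2.2.3, cutadapt 1.2.1, SAMtools 1.2 and Cufflinks 2.2.1 with Cuffdiff, and the build was mm10. Gene models, strand setting and the treatment of multiply aligned fragments are, for this series, not given in the sources used here. For each gene and library the authors deposited 1 FPKM value and 1 estimated count, which is not normalized; the counts are not whole in 312 genes, none of them among the 8. Their Cuffdiff table holds, per the file headers, a p-value, a q-value and a log2 fold change for every gene. A deposited table of group means was not used here.

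Counts were rounded, filtered with filterByExpr (14354 genes kept, all 8 among them), scaled by TMM and tested two-sided with edgeR 4.0.16 (quasi-likelihood, 3 against 3 libraries, no covariates, Benjamini-Hochberg adjusted p under 0.05) in R 4.3.3. The test was tried on simulated data with known changes first. Those changes were larger than any fitted for the 8 genes, and no outlying library was simulated. Standard errors came from the F statistic. Libraries 0, 1 and 2 match no sample label, so each was taken as 1 mouse of its group. Centred log2 CPM used a prior count of 2. Alternatives were RLE and upper-quartile scaling, other filters, DESeq2 1.42.0, limma 3.58.1 (voom, and log2(FPKM + 1) or log2(FPKM + 0.1)) and leaving out each library. The genes and lists were chosen with earlier results of these data known. Named list genes are those with the smallest p in a list (3 for proteoglycan and chain synthesis lists). Xylt1, Xylt2, Cd44, Tlr2, Tlr4, Pdgfra, Omd, Ecm2, Kera, Epyc, Optc, Slc34a1 and Lrp2 were added by role or position. Lrp1 and Igf1r were named for their p without wild-type library 0. Some genes that these rules select are not reported here. Fold changes on log2(FPKM + 1) understate low genes. Counting errors cover counting only.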

Additional observations from a re-analysis of the deposited data

How the results depend on the processing

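With each alternative 0 of the 8 genes passed. Their median log2 fold change ran from -0.33 to -0.18 with a library left out, and 6 or 7 of the 8 had a lower fitted level in every setting. Over all genes, edgeR called 0 (1193 at an unadjusted p under 0.05). DESeq2 called 13 (802 at an unadjusted p under 0.05), limma called 0 in each of its 3 forms, edgeR with no filter called 1 (Pdk4), and with a library left out edgeR called 0 to 1 (Snurf with wild-type library 2 left out). Pdk4 and Snurf were named after their values were seen. The count at an unadjusted p under 0.05 was 516 without knockout library 1.

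The sign of Ogn turned to -0.020 on log2(FPKM + 1), -0.021 on log2(FPKM + 0.1), -0.062 with wild-type library 1 left out and -0.015 with knockout library 1 left out. With a library left out Ogn ran from -0.062 to 0.18 and Aspn from -0.066 to 0.46. The sign of Aspn turned to -0.066 without knockout library 0. The cause was not tested. The other 6 genes kept their sign in all 14 alternatives. An unadjusted p under 0.05 was found in 14 of them for Bgn, 8 for Fmod, 3 for Dcn and 1 for Lum. The low counts of Aspn, Lum and Fmod limit what could be detected for them. No paired analysis was possible because the library numbers match no sample label and name no shared litter, batch or day.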
